A study of Arabidopsis thaliana with 6 samples.

Results

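The genes described here are 10 Arabidopsis loci for iron storage, for the loading and release of vacuolar iron, and for iron reduction and transport, of 30509 loci with a value on the array. They were chosen by name and function, with earlier results of these data known. Each of the 10 was found once in the table by its locus identifier. They are the ferritin genes FER1 (AT5G01600), FER2 (AT3G11050), FER3 (AT3G56090) and FER4 (AT2G40300), the vacuolar iron importer gene VIT1 (AT2G01770), the vacuolar exporter genes NRAMP3 (AT2G23150) and NRAMP4 (AT5G67330), the ferric reductase gene FRO3 (AT1G23020), the nicotianamine synthase gene NAS4 (AT1G56430) and the transporter gene OPT3 (AT4G16370). The question put to them was whether the storage genes moved against the genes that iron deficiency induces.

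The study followed the return of desiccation tolerance to seeds that had already germinated. Seeds of the Col-0 accession were stratified for 72 h at 4 °C and then germinated at 22 °C in constant white light. Desiccation-sensitive (DS) seeds were taken untreated when they had germinated, and desiccation-tolerant (DT) seeds, collected at the same stage, were kept for 3 d at 22 °C in the dark in a polyethylene glycol (PEG) solution of -2.5 MPa and then rinsed. Each group had 3 biological replicates, each a pool of whole germinated seeds on 1 tiling array. DT therefore differed from DS in PEG, in darkness and in the 3 d that had passed since germination, and these cannot be told apart. In whole germinated seeds, fewer cells of a type and less RNA per cell cannot be told apart either.

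Ferritins are plastid protein shells that take up surplus iron, and in Arabidopsis FER2 is the ferritin of the seed, whereas the other ferritins are best known from leaves and flowers. Most iron of the dry embryo lies in vacuoles, where VIT1 places it during seed development and from where NRAMP3 and NRAMP4 release it when the seed germinates. When cells are short of iron, IMA peptides and bHLH transcription factors raise the transcripts of reductases, nicotianamine synthases and transporters, among them FRO3, NAS4 and OPT3, and ferritin transcripts are kept low.

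The ferritin genes share much of their sequence, so a stretch of coding sequence is printed to show how alike the measured transcripts are. All 4 genes have 8 exons in the RefSeq annotation of TAIR10.1. The stretch is the 60 coding bases of FER2 that the other ferritin genes match best without gaps, it spans 1 intron in each gene, and the 43 bases identical in all 4 genes are in capitals.
FER1, coding bases 415 to 474, chr5:228820-228979, minus strand: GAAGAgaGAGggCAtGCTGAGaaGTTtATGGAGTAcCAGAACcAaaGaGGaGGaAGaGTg
FER2, coding bases 400 to 459, chr3:3464429-3464560, plus strand: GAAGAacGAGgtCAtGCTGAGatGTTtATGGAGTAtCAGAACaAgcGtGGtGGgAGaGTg
FER3, coding bases 418 to 477, chr3:20815150-20815309, minus strand: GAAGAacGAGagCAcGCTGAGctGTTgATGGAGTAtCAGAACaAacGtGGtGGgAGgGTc
FER4, coding bases 424 to 483, chr2:16832411-16832555, minus strand: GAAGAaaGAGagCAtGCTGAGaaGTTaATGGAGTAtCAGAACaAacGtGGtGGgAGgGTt
In this stretch FER1 was identical to FER2 at 49 bases, and FER3 and FER4 each at 52 bases. Over the aligned coding sequences identity was 69.3% for FER1 with FER2, 71.5% for FER2 with FER3 and for FER2 with FER4, and 78.0% for FER3 with FER4, and the longest runs without a difference were 17, 17, 17 and 32 bases. NRAMP3 and NRAMP4 were 72.9% identical, with a longest run of 23 bases. Whether any probe lay in such a run is not given in the sources used here.

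Upstream sequence is shown for FER1, which rose, for FER3, which was not called, and for the pair of deficiency genes with the largest changes. The windows are the 250 bases before the annotated start of 9 of the 10 genes, without FER4, from the TAIR10.1 genome. Windows were searched on both strands for ACGTG, the core of the abscisic acid response element, for CACGTG, the G-box, which contains that core, for CATGCA, the RY element of seed genes, and for CACGAG, the first letters of the iron-dependent regulatory sequence known from FER1. Capitals mark the matches.
FER1, chr5:230052-230301, minus strand: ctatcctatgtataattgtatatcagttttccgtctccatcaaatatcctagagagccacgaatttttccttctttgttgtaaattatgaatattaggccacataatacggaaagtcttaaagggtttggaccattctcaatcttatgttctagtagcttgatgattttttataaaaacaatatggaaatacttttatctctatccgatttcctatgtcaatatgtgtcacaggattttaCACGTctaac
FER3, chr3:20816036-20816285, minus strand: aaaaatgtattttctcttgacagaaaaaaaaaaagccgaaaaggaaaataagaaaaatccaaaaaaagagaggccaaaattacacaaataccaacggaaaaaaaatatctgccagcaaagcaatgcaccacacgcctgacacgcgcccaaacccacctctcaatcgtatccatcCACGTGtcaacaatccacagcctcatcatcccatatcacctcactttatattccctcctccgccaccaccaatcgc
NAS4, chr1:21136585-21136834, plus strand: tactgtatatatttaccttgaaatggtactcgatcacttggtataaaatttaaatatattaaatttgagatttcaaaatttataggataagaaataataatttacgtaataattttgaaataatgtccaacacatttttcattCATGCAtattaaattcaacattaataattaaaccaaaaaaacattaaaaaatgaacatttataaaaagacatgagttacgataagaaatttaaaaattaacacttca
OPT3, chr4:9250344-9250593, minus strand: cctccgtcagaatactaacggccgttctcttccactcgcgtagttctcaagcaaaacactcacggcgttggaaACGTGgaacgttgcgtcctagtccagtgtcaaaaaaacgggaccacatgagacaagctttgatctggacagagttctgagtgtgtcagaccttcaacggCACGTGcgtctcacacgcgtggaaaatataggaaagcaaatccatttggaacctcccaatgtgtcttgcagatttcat
The ACGTG core was in 4 of the 9 windows (FER1, FER3, FRO3 and OPT3) and in 23.2% of the 25955 windows of all array loci with one. The G-box was in the windows of FER3 and OPT3 and in 6.68% of all windows. The RY letters were in the NAS4 window alone among the 9, and in 8.55% of all windows. CACGAG was in 0 of the 9 windows and in 4.14% of all windows. The window of FER2 held none of these letters and is not printed because it lies over the end of the neighbouring gene AT3G11040. The stretch from the annotated start to the start codon, which differs in length between genes (37 to 556 bases), was searched as well. There the core occurred at 4 positions each in FER1, FER2 and NRAMP4, at 3 in FRO3, at 2 in OPT3 and at 1 in NRAMP3, where a G-box counts as 2 positions, and in 17.0% of the 22771 such stretches of all array loci. A G-box lay in that stretch of FER1, FER2 and OPT3 (4.36% of all) and CACGAG in that of FER1 (5.85% of all). These shares are not matched for length. The median stretch of all array loci had 195 bases, against 457 in FER1, 556 in NRAMP4 and 174 in FER2. In the upstream windows the same core preceded a gene that rose (FER1), a gene that was not called (FER3) and genes that fell (FRO3, OPT3), and these matches are descriptions of sequence only.

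Values are quantile-normalized log2 signals, 1 per gene and array, and a difference of 1 is a 2-fold change. Over all genes, arrays of the same group correlated at 0.972 to 0.977 in DS and at 0.957 to 0.975 in DT, where replicate 1 stood slightly apart from the other DT arrays (0.958 and 0.957). The 95th percentile of the 3629 annotated pseudogenes, used here as a background level, was 4.96 in DS and 4.98 in DT, and 36.0% and 30.2% of all genes lay above it. The labelled tissue was checked with marker genes. The 4 seed reserve genes rose from a mean level of 4.98 to 4.99 in the DS arrays to 8.58 to 8.68 in the DT arrays, the 3 measured photosynthetic genes had mean levels of 6.77 to 6.80 and 6.62 to 6.69 (1 of 3 lower), and the 3 endosperm genes 5.31 to 5.39 and 5.71 to 5.94 (1 of 3 higher). The 4 root hair genes had mean levels of 4.73 to 4.85 and 4.7 to 4.74 (1 of 4 lower), with 1 above background in DS and 0 in DT. The 4 vascular genes had 5.12 to 5.25 and 4.99 to 5.18 (2 of 4 lower), with 2 above background in DS and 1 in DT. SEOR1, among the lower vascular genes, was under background in both groups. Of all genes, 9.97% were called higher and 19.9% lower. What part these differences had in the values below was not tested.

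With limma and Benjamini-Hochberg adjustment over all 30509 genes, 2 of the 10 genes were up-regulated in DT at an adjusted p of at most 0.05 (FER1 and FER2) and 4 were down-regulated (NRAMP3, FRO3, NAS4 and OPT3). The background for these counts is 9.97% of all genes higher and 19.9% lower. The study's methods name a 2-fold filter with a p of at most 0.05, without the test or any adjustment. With the unadjusted limma p in that filter, FER2 alone of the 10 was higher and FRO3, NAS4 and OPT3 were lower. Of all genes, 0.862% passed as higher and 1.36% as lower. The 3 DS and 3 DT arrays did not overlap for 6 of the 10 genes, against 42.4% of all genes. The median log2 change of the 10 genes was -0.09 and that of all genes -0.02.

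**Figure D1:**
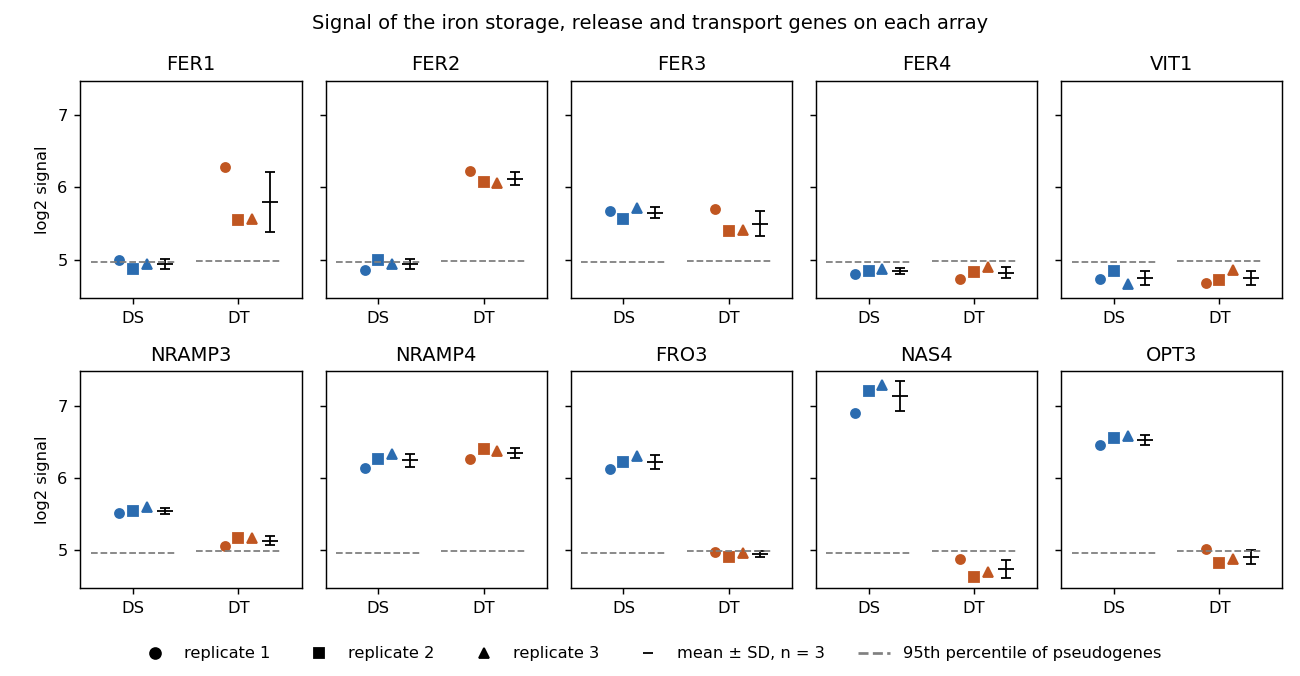
Log2 signal (vertical axis) of the 10 genes in the 3 DS and 3 DT arrays, with a marker for each replicate, the group mean and SD (n = 3) beside them, and the 95th percentile of pseudogenes as a dashed line (4.96 in DS, 4.98 in DT). FER1 and FER2 left the background level in DT, and the DT means of FRO3, NAS4 and OPT3 lay below it.

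FER2, the seed ferritin, rose 2.28-fold. The gene lies at chr3:3463477-3465506 on the plus strand. Its log2 signal was 4.86, 5.0 and 4.94 in DS replicates 1 to 3 and 6.22, 6.08 and 6.07 in DT replicates 1 to 3. The groups did not overlap, and all DT arrays were more than 1 log2 unit above every DS array. The mean went from 4.93 ± 0.07 to 6.12 ± 0.09 (SD, n = 3), a log2 change of 1.19 (SE 0.0614, 95% interval 1.05 to 1.33, limma adjusted p = 6.93e-06), which placed FER2 at rank 199 among the rises of all genes. The DS mean was under the pseudogene level.

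FER1, the ferritin known for its response to iron excess and to oxidative stress in leaves, rose 1.82-fold. It lies at chr5:227953-230051 on the minus strand. Its log2 signal was 5.0, 4.86 and 4.94 in the DS arrays and 6.28, 5.55 and 5.57 in the DT arrays. The groups did not overlap, but DT replicate 1 stood 0.72 above the mean of the other DT arrays, and the DT SD of 0.414 exceeded that of 99.5% of genes. The log2 change was 0.86 (SE 0.179, 95% interval 0.45 to 1.28, limma adjusted p = 0.00754). Without DT replicate 1 it was 0.62 (adjusted p = 0.000276), still past the threshold. A non-coding locus on the opposite strand, AT5G01595, overlaps FER1 over 1334 bases, and whether the probes of either gene fall in the overlap is not given in the sources used here. AT5G01595 had signals of 5.12, 5.14 and 4.84 in DS and 4.90, 5.29 and 4.91 in DT, which overlapped (log2 change 0.00, adjusted p = 0.994).

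The remaining ferritin genes did not pass the test. FER3, at chr3:20813904-20816035 on the minus strand, had signals of 5.68, 5.56 and 5.72 in DS and 5.69, 5.40 and 5.41 in DT. DT replicate 1 lay within the DS range and the other DT arrays below it. The log2 change was -0.15 (95% interval -0.36 to 0.05, limma adjusted p = 0.262). FER4, whose product also reaches mitochondria, lies at chr2:16831109-16833294 on the minus strand and had signals of 4.79, 4.85 and 4.88 in DS and 4.73, 4.83 and 4.89 in DT. These lay under the pseudogene level in every array, and the change was -0.02 (95% interval -0.15 to 0.11, adjusted p = 0.828). The protein-coding gene AT2G40290 overlaps FER4 over 118 bases and was lower in DT (log2 change -0.40, limma adjusted p = 0.000725). Whether probes fall in that overlap is not given in the sources used here. The interval of FER4 did not reach the change of FER1. It measures the scatter of a signal at background, where neither a rise nor a fall of the transcript need show.

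The ferritin genes were also set against one another on each array, which removes whatever an array shares between the genes. Of 4 such pairs of paralogs, NRAMP3 and NRAMP4 included, FER2 less FER3 went from -0.82, -0.56 and -0.77 in DS to 0.53, 0.68 and 0.66 in DT, a difference of 1.34. FER2 less FER4 went from 0.07, 0.15 and 0.07 to 1.49, 1.25 and 1.18, a difference of 1.21. Neither pair overlapped between the groups, and the two-sided exact permutation p was 0.1 for each (0.133 adjusted over the 4 pairs). That is the smallest p that 3 against 3 arrays allow, so no pair could pass 0.05. FER2 less FER1 was -0.14, 0.13 and 0.00 in DS and -0.05, 0.53 and 0.50 in DT, which overlapped through DT replicate 1, with a difference of 0.32 and an exact p of 0.3.

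**Figure D2:**
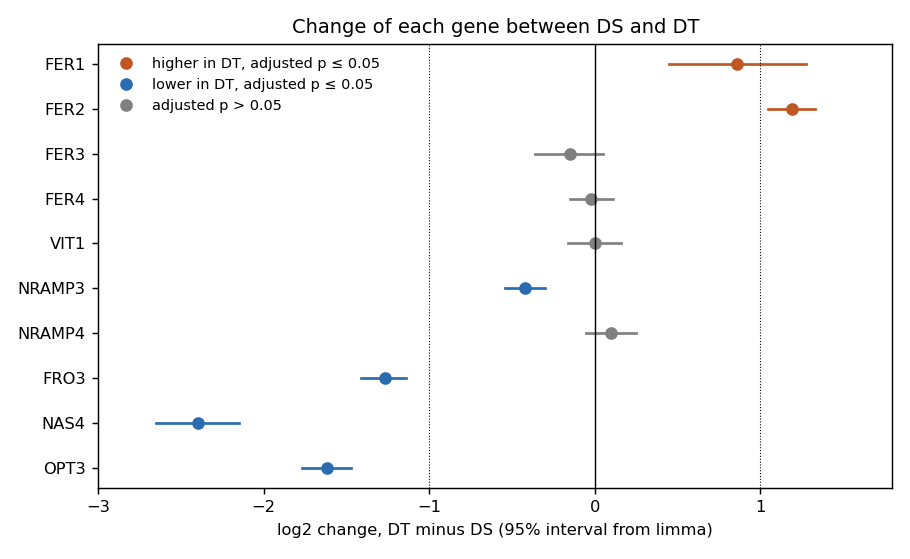
Log2 change from DS to DT (horizontal axis) of the 10 genes with the 95% interval of the limma fit to 3 arrays per group, and dotted lines at a 2-fold change either way. FER1 (0.86) and FER2 (1.19) lay to the right of 0, NRAMP3 (-0.42), FRO3 (-1.27), OPT3 (-1.62) and NAS4 (-2.40) to the left, and the intervals of FER3, FER4, VIT1 and NRAMP4 included 0.

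VIT1, which loads iron into embryo vacuoles, was at background in both groups. It lies at chr2:334663-336462 on the minus strand, with 4 exons. Its signal was 4.74, 4.85 and 4.66 in DS and 4.67, 4.71 and 4.85 in DT, and the groups overlapped. No difference was detectable (log2 change 0.00, 95% interval -0.16 to 0.16, limma adjusted p = 0.988). The protein-coding gene AT2G01760, which overlaps VIT1 over 98 bases, was not called (log2 change -0.16, limma adjusted p = 0.103). The 5 VIT1-like genes were likewise not called, with changes from -0.06 to 0.14. All 5 were under the pseudogene level in both groups, so a fall could hardly be seen.

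Of the pair of exporters that empty the vacuole in germination, NRAMP3 fell and NRAMP4 did not pass the test. NRAMP3 lies at chr2:9856149-9858778 on the minus strand, and its signal was 5.51, 5.54 and 5.59 in DS and 5.06, 5.16 and 5.16 in DT. All DT arrays were lower than every DS array. The fall was 0.42 on the log2 scale, from 5.55 ± 0.04 to 5.13 ± 0.06 (SD, n = 3), with a limma adjusted p of 0.000503 and a 95% interval of -0.54 to -0.30. It was short of the 2-fold filter. NRAMP4, at chr5:26861266-26863897 on the plus strand, had signals of 6.14, 6.26 and 6.32 in DS and 6.26, 6.40 and 6.37 in DT. The groups overlapped, and the change was 0.10 (95% interval -0.05 to 0.25, adjusted p = 0.303). On each array, NRAMP3 less NRAMP4 was -0.63, -0.72 and -0.73 in DS and -1.21, -1.24 and -1.20 in DT. The difference of -0.52 did not overlap between the groups and had the smallest exact p the design allows, 0.1.

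NAS4, which makes the iron chelator nicotianamine, had the largest change of the 10 genes. It is a gene of 1 exon at chr1:21136835-21138277 on the plus strand. Its signal was 6.90, 7.20 and 7.29 in DS and 4.87, 4.63 and 4.69 in DT, so that all DT arrays lay below the pseudogene level. The log2 change was -2.40 (SE 0.109, 95% interval -2.65 to -2.15, limma adjusted p = 3.83e-06), a 5.28-fold lower signal.

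OPT3 carries iron into the phloem and its loss leaves roots behaving as if starved of iron. It lies at chr4:9247302-9250343 on the minus strand, with 5 exons. Its signal was 6.45, 6.55 and 6.58 in DS and 5.02, 4.82 and 4.88 in DT. The groups lay far apart, and the DT mean was under the pseudogene level. OPT3 fell by 1.62 on the log2 scale, 3.08-fold (SE 0.0652, 95% interval -1.77 to -1.47, adjusted p = 2.21e-06 by limma).

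FRO3, a ferric reductase of mitochondria, fell 2.42-fold. It lies at chr1:8149868-8153796 on the minus strand, with 9 exons and 7 annotated transcripts, which a value per gene does not separate. Its signal was 6.12, 6.22 and 6.31 in DS and 4.97, 4.90 and 4.96 in DT. The DT arrays were tightly grouped and under the pseudogene level. The log2 change was -1.27 (SE 0.0594, 95% interval -1.41 to -1.14, adjusted p = 4.37e-06 in the limma fit). Ranked from the largest fall of all genes, NAS4 was at 12, OPT3 at 82 and FRO3 at 201.

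Storage and deficiency genes were then set side by side. The mean log2 change was 0.47 for the 4 ferritin genes, from -0.15 (FER3) to 1.19 (FER2), and -1.77 for FRO3, NAS4 and OPT3, from -2.40 to -1.27, which put the sets 2.24 apart. Relative to its own DS mean, the ferritin set was at -0.01, -0.02 and 0.03 in the DS arrays and at 0.64, 0.37 and 0.39 in the DT arrays. The deficiency set was at -0.14, 0.03 and 0.10 in DS and at -1.67, -1.84 and -1.78 in DT. The sets therefore lay on opposite sides of their DS level in each of the 3 DT arrays, but the storage side rested on FER1 and FER2 alone. Since the genes were chosen with results of these arrays known, this contrast is a description and was given no test.

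**Figure D3:**
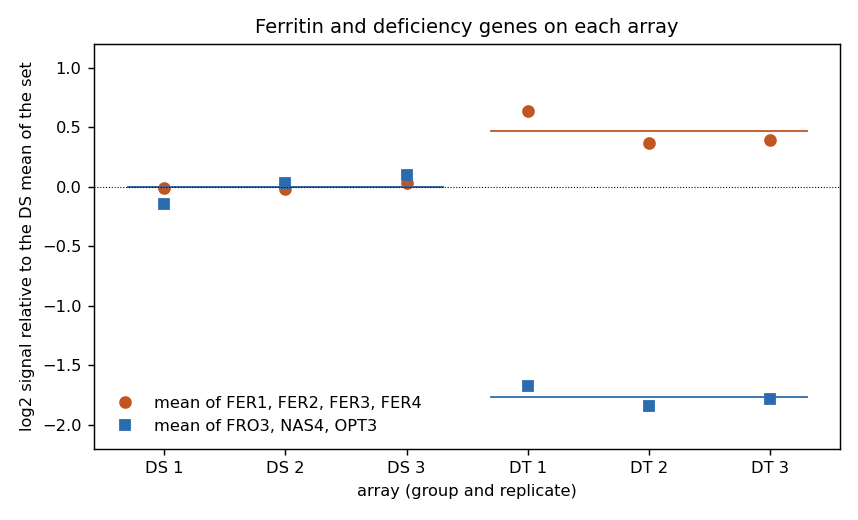
Mean log2 signal of the 4 ferritin genes (circles) and of FRO3, NAS4 and OPT3 (squares) on each of the 6 arrays, each relative to the DS mean of its set, with lines at the group means. In DT the ferritin set lay at 0.37 to 0.64 and the deficiency set at -1.84 to -1.67.

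The wider iron genes were counted in 6 lists of 69 genes in all, of which 4 were higher (5.80%, against 9.97% of all genes), 22 lower (31.9%, against 19.9%) and 43 not called, with a median change of -0.03. In both groups 37 of the 69 were under the pseudogene level, where a fall could hardly be seen. Most of the falls were among the 19 regulators of the deficiency response: 13 were lower (68.4%) and 2 were higher (10.5%), with a list median of -0.37, and 7 passed the 2-fold filter as lower (36.8%, against 1.36% of all genes). IMA2, an IMA peptide gene upstream of the response, fell the most of these, from 8.48, 8.41 and 8.52 in DS to 5.64, 5.26 and 5.22 in DT (log2 change -3.09, limma adjusted p = 1.15e-06). IMA1 and IMA3, picked out after their values were seen, had changes of -3.02 and -2.25 (adjusted p = 7.81e-07 and 6.17e-06). The regulators that rose were bHLH121 (0.61, adjusted p = 0.000111), which activates the Ib bHLH genes, and ILR3 (0.33, adjusted p = 0.00225), which in complex with PYE represses ferritin genes. PYE itself, picked out after its value was seen, was lower (-0.35, limma adjusted p = 0.0023). The list thus mixes activators with repressors, and its counts do not separate them. The Ib genes themselves, also picked out after their values were seen, were lower. The changes of bHLH38, bHLH39, bHLH100 and bHLH101 were -1.40, -1.41, -1.38 and -0.83 (limma adjusted p from 2.23e-05 to 4.51e-05). The 4 regulators not called were bHLH104, BTSL2, MYB10 and MYB72. Among the lower regulators, FIT (-0.33) and BTSL1 (-0.30) were under the pseudogene level in both groups, which limits what their falls can show.

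Most paralogs of FRO3, NAS4, NRAMP3 and NRAMP4 were at background. Among the 13 other FRO, NAS and NRAMP genes, 1 was higher (NRAMP1, 0.24, limma adjusted p = 0.0492) and 1 lower (NAS3, -0.35, adjusted p = 0.0175), with a median of 0.00, 10 were under the pseudogene level in both groups, and both calls were lost when DS replicate 2 was left out. Among the 8 other OPT genes 3 were lower (37.5%, against 19.9% of all genes), OPT7 (-0.73), OPT1 (-0.58) and OPT6 (-0.31), 0 were higher, and the remaining 5 were under the pseudogene level in both groups. Of the 8 genes of iron uptake at the root surface, 1 was called (12.5%), the proton pump gene AHA2, which fell by 0.83 (adjusted p = 6.42e-05). The IRT1 and FRO2 genes, which take up and reduce iron at the root, were picked out after their values were seen and were under the pseudogene level in both groups, with changes of -0.08 and -0.10. Of the 16 genes listed under other iron and metal transport, not all of them transporter genes, 4 were lower and 1 higher. These shares of 25.0% and 6.25% lie near those of all genes. The lower genes were led by the vacuolar nicotianamine transporter gene ZIF1 (-0.67, adjusted p = 2.41e-05) and followed by FH (-0.34), IREG3 (-0.22) and PIC1 (-0.21), and the higher one was the mitochondrial iron transporter gene MIT2 (0.20, adjusted p = 0.0115). All 7 other FRO genes and 2 of the 3 other NAS genes were under the pseudogene level in DS already, so their changes cannot be ranked against the falls of FRO3 and NAS4.

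**Figure D4:**
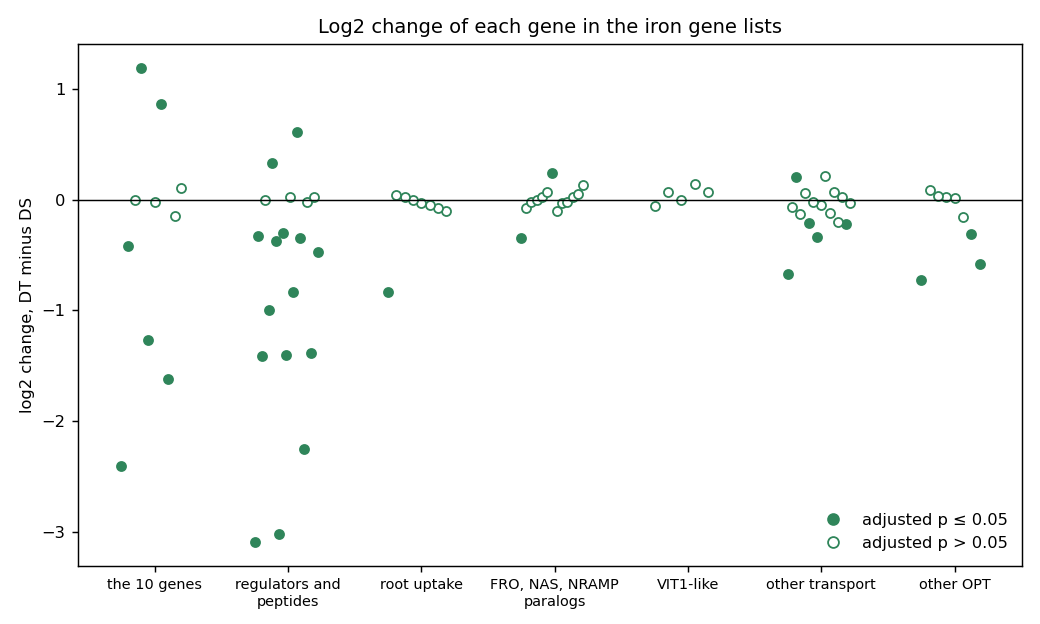
Log2 change from DS to DT (vertical axis) of each of the 10 genes and of the 69 genes of the 6 iron lists, with filled points for an adjusted p of at most 0.05 (limma). The regulators reach down to -3.09 (IMA2). The changes of the VIT1-like genes, all under the pseudogene level in both groups, run from -0.06 to 0.14.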

How the data were processed

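Biotin-labelled cRNA from 3 DS and 3 DT samples was hybridized to an Affymetrix SNPtile array. The deposited values are on the log2 scale, 1 per gene and array, made by the authors with an R script, a TAIR9-based probe annotation and quantile normalization; background correction and the summary over probes are not given in the sources used here. Gene models and sequences come from RefSeq TAIR10.1, matched by locus (30078 of 30509). No depth exists for arrays, and 3 per group limit the precision. DT was compared with DS by limma 3.58.1 (R 4.3.3) with Benjamini-Hochberg adjustment over all genes, without covariates or a filter, tested on simulated data. Pairs of paralogs were compared by exact permutation (scipy 1.17.1). The genes and lists were chosen with earlier results of these data known. Named genes are the 10 members and, in each list, the largest called rise and fall, plus counts of 5 or fewer spelled out. Genes picked out after their values were seen are marked as such, and called genes under the pseudogene level in both groups are named for that limit. Alternatives were array centring, repeated quantile normalization, trended and robust variances, a replicate block, dim genes left out, the filter of the methods and each array left out. The upstream sequence of 1 gene is not reported here.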

Additional observations from a re-analysis of the deposited data

How the results depend on the processing

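Of 110 recomputed log2 changes of the 10 genes, 108 stayed on their side of the threshold, 2 passed it newly, and 0 called changes lost the call or turned direction at an adjusted p of 0.05. List genes called ranged from 22 to 27, against 26, over array centring, repeated quantile normalization, the replicate block and each array left out. They were not counted under the other alternatives. The filter of the methods left 1 gene called higher among the 10, against 2 by adjusted p, since the change of FER1 was under 2-fold. With medians in place of means, the ferritin and deficiency sets were 2.04 apart, against 2.24. FER3 passed the threshold without DT replicate 1 (-0.25, limma adjusted p = 0.0206; range over its alternatives 0.0206 to 0.787), and NRAMP4 did with quantile normalization repeated (0.23, adjusted p = 0.0104; range 0.0104 to 0.647). The cause was not tested. The 2 calls among the other FRO, NAS and NRAMP genes became 0 to 1 when single arrays were left out and 1 with a replicate block.

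The replicate block called 6 of the 10 genes, 2 higher and 4 lower, and 26 list genes, the same numbers as without it. Deviations of same-numbered DS and DT arrays correlated at 0.061, -0.01 and 0.104, and those of differently numbered arrays at -0.133 to 0.073. With 3 arrays per group, these values cannot decide whether the numbers pair the samples. FER1, FER2, FRO3, NAS4 and OPT3 each had a group mean under the pseudogene level, which limits what their fold changes can show.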
